A study of Mus musculus with 6 samples.

Results

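Catalase, superoxide dismutases and the enzymes that remove peroxides were followed through 10 genes in RNA from liver tumours: Cat, Sod1, Sod2, Sod3, Gpx1, Gpx3, Prdx1, Prdx2, Prdx5 and Prdx6. They were taken by symbol from a table of 55536 genes. The genes were chosen by name, and the highest sum of counts was to select a row where a symbol had several Ensembl IDs. Each symbol had 1 ID, so no measured value selected a row. All 10 passed the filter on low counts, as did 17423 genes in all. Male C3H mice aged 6 to 8 weeks received 1000000 HCA-1 cells (a line of murine liver cancer) beneath the capsule of the liver. The 3 Control tumours (replicates 3, 4 and 5) came from untreated mice. The 3 TSDP tumours (replicates 1, 2 and 5) came from mice given nanoparticles that carried DNIC, a nitric oxide donor, and the kinase inhibitor sorafenib, by 6 injections into a vein from day 10 to day 23. All tumours were taken on day 24. The labels name no group with an empty carrier or with either drug alone, so the 2 drugs and their carrier cannot be told apart.

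Superoxide, a by-product of respiration and of oxidases, is turned into hydrogen peroxide by superoxide dismutases in the cytosol (SOD1), the mitochondrial matrix (SOD2) and outside the cell (SOD3). Hydrogen peroxide is then removed by catalase, which sits mainly in peroxisomes, by glutathione peroxidases and by peroxiredoxins, which draw on glutathione and thioredoxin. The liver is rich in catalase and in the cytosolic glutathione peroxidase GPX1. GPX3 is the glutathione peroxidase secreted into plasma. Transcripts of these enzymes report neither enzyme activity nor peroxide levels.

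Total counts ranged from 32130808 to 38953397 per library, and no single gene passed the edgeR test in the whole table. Libraries differed widely in RNA of hepatocyte marker genes, called hepatocyte RNA below. The summed level of 19 hepatocyte marker genes, in TMM-scaled counts per 1000000 (CPM), came to 125, 25068 and 4384 for Control 3, 4 and 5, against 37011, 70738 and 23367 for TSDP 1, 2 and 5. No marker of that list was at 0 in any library, although Control 3 came near it. In bulk tissue, fewer cells of a type and less RNA per cell cannot be told apart. Nor can hepatocyte RNA of the host liver be told from that of HCA-1 cells here. Control 3 also held the most haemoglobin RNA, with 659 CPM summed over 9 erythroid genes against 15.4 to 53.0 CPM in the other libraries. Only the titles mark the libraries of a group as replicates, and p-values measure no more than the spread among them, which may be technical.

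Catalase stood out among the 10 enzymes: its level in TSDP tumours was 3.76 times that in Control tumours. Cat (ENSMUSG00000027187) was counted at 152, 211 and 161 CPM in Control 3, 4 and 5, against 609, 906 and 456 CPM in TSDP 1, 2 and 5. Every TSDP library lay above every Control library, and the gap between the groups was wider than the whole Control range. The Control mean was 175 CPM ± 32.1 and the TSDP mean 657 CPM ± 229 (SD, n = 3 each). The log2 fold change (TSDP over Control) was 1.91 ± 0.29 (SE), and 95.7% of tested genes had a value no higher. Cat ranked 14 by p among 17423 genes, yet its edgeR adjusted p was 0.326, which was also the smallest in the table. DESeq2, which called 2.98% of the genes it adjusted as higher in TSDP, gave Cat an adjusted p of 5.15e-08.

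The 250 bases upstream of the RefSeq start of Cat are shown because this gene differed most between the groups (GRCm38.p6, minus strand, chr2:103485154-103485403). No match of the 4 motifs described further on was found in these letters, so none stands in capitals.
Cat: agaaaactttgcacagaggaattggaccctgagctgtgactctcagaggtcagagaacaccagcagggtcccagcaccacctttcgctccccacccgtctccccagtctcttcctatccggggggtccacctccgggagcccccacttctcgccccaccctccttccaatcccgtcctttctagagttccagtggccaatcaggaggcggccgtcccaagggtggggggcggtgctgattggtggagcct

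Of the other enzymes, Gpx1, Sod1 and Sod2 followed catalase with smaller differences and separate groups. Gpx1 (ENSMUSG00000063856) was counted at 153, 231 and 156 CPM in Control 3, 4 and 5, against 391, 423 and 279.8 CPM in TSDP 1, 2 and 5. Its log2 fold change was 1.02 ± 0.24 (SE), with adjusted p of 0.326 from edgeR and 0.00482 from DESeq2. The groups did not overlap, and Control 4 was the highest Control library, as it was for Cat. Sod1 (ENSMUSG00000022982), the copper and zinc enzyme of the cytosol, was counted at 85.1, 124 and 102 CPM in Control, against 179, 236 and 153 CPM in TSDP, in the same order of libraries. Its log2 fold change was 0.87 ± 0.21 (SE), with adjusted p of 0.326 from edgeR and 0.0142 from DESeq2. TSDP 2 was highest and Control 3 lowest. Sod2 (ENSMUSG00000006818), the manganese enzyme of mitochondria, was counted at 35.8, 48.6 and 43.5 CPM in Control, against 63.6, 80.9 and 59.1 CPM in TSDP. Its log2 fold change was 0.67 ± 0.17 (SE), with adjusted p of 0.326 from edgeR and 0.0409 from DESeq2. The libraries stood in the same order for Sod2 as for Sod1.

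The extracellular enzyme Sod3 did not separate the groups. Sod3 (ENSMUSG00000072941) was counted at 32.0, 71.0 and 117 CPM in Control 3, 4 and 5, against 104, 103 and 88.1 CPM in TSDP 1, 2 and 5. Control 5 was the highest library of all and Control 3 the lowest. The means were 73.3 CPM ± 42.4 and 98.4 CPM ± 8.85 (SD, n = 3 each). That gave a log2 difference of 0.42 ± 0.43 (SE) and an edgeR adjusted p of 0.677. The coefficient of variation was 57.9% in Control and 9.0% in TSDP. The log2 fold change of Sod3 was 0.05 without Control 3 and 0.91 without Control 5.

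Gpx3, the secreted relative of Gpx1, was the only 1 of the 10 with a lower mean in TSDP. Gpx3 (ENSMUSG00000018339) was counted at 30.2, 63.4 and 34.6 CPM in Control 3, 4 and 5, against 19.5, 59.3 and 26.3 CPM in TSDP 1, 2 and 5. The groups overlapped, with Control 4 and TSDP 2 high and the other 4 libraries low. The log2 fold change was -0.29 ± 0.48 (SE), with an adjusted p of 0.81 from edgeR, and its sign turned without Control 4, at 0.11, and without TSDP 1, where it was near 0. Without TSDP 2 it was -0.91. Both genes encode selenoproteins, in which an in-frame stop codon is read as selenocysteine, the residue that reacts with peroxide. The bases around it are shown for the pair because the enzymes share this chemistry, while 1 acts in cells and the other in plasma. They were read from GENCODE M21 transcripts, with the codon in capitals, at codon 47 of Gpx1 and codon 73 of Gpx3.
Gpx1: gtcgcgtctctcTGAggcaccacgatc
Gpx3: gtagccagctacTGAggtctgacagac

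Among the peroxiredoxins, Prdx1 and Prdx6 stood slightly higher in every TSDP library, while Prdx2 and Prdx5 overlapped. Prdx1 (ENSMUSG00000028691), a cytosolic peroxidase that uses thioredoxin, was counted at 529, 453 and 458 CPM in Control 3, 4 and 5, against 659, 609 and 584 CPM in TSDP 1, 2 and 5. Unlike Cat and Gpx1, its highest Control library was Control 3. The log2 fold change was 0.36 ± 0.14 (SE), with an adjusted p of 0.365 from edgeR. Prdx6 (ENSMUSG00000026701), a peroxidase with a single catalytic cysteine that is also a phospholipase, was counted at 196, 184 and 189 CPM in Control, against 243, 268 and 198 CPM in TSDP. Its log2 fold change was 0.32 ± 0.14 (SE), with an adjusted p of 0.4 from edgeR. TSDP 5 lay barely above Control 3, so the separation of Prdx6 rested on a small gap.

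Prdx2 had the smallest difference of the 10. Prdx2 (ENSMUSG00000005161), a cytosolic peroxidase abundant in red blood cells, was counted at 92.0, 93.3 and 88.1 CPM in Control 3, 4 and 5, against 100.5, 88.1 and 95.3 CPM in TSDP 1, 2 and 5. Its log2 fold change was 0.05 ± 0.10 (SE), with an adjusted p of 0.829 from edgeR. The sign of this small value turned under other scalings of the libraries. Control 3, with the most haemoglobin RNA, was not the highest library of Prdx2, and the part of red blood cells in its level was not tested. The coefficient of variation of Prdx2 was 2.98% in Control and 6.57% in TSDP. Prdx5 (ENSMUSG00000024953), which is found in mitochondria, peroxisomes and cytosol, was counted at 109, 109.9 and 148 CPM in Control, against 137, 128 and 146 CPM in TSDP. Its log2 fold change was 0.17 ± 0.15 (SE), with an adjusted p of 0.646 from edgeR, and Control 5 was its highest library. Leaving out 1 library at a time moved this value between 0.07 (without Control 3) and 0.31 (without Control 5).

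**Figure D1:**
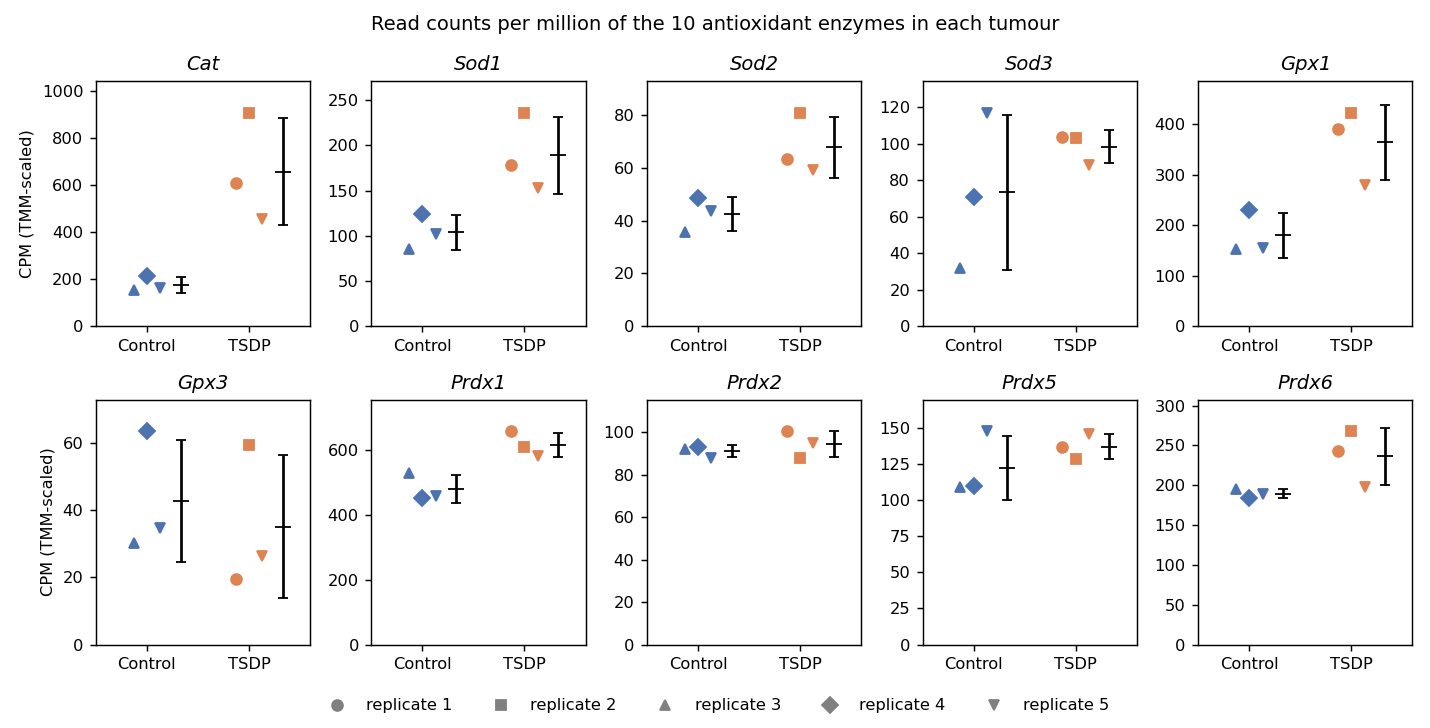
Level of each of the 10 genes in CPM (vertical axis, from 0) in the 3 Control and 3 TSDP tumours. Each symbol is a library, with its shape giving the replicate number, and the black mark with its bar is the mean ± SD. The groups are apart for Cat, Sod1, Sod2, Gpx1, Prdx1 and Prdx6 and overlap for Sod3, Gpx3, Prdx2 and Prdx5.

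In all, 6 of the 10 genes had every TSDP value above every Control value and 0 the reverse, where 13% of the 17423 tested genes were separate in the former direction and 8.76% in the latter. The edgeR test called 0 of the 10 and 0% of all genes. At an unadjusted p under 0.05 it took 5 of the 10 (Cat, Gpx1, Sod1, Sod2 and Prdx1), all higher in TSDP, with a background of 8.6%, and 0 as lower, with a background of 4.75%. limma-voom also called 0, while DESeq2 called 4, namely Cat, Gpx1, Sod1 and Sod2, all higher, where its calls over all genes were 2.98% higher and 0.397% lower. The median log2 fold change of the 10 was 0.39, against -0.02 for all tested genes, and 9 of 10 were positive against 47.3% of all. The 10 genes were picked with earlier results of these data known, so these counts describe them and are not independent evidence.

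The 4 genes that DESeq2 called varied together over the libraries. Pearson's r of log2 CPM over the 6 libraries was 0.972 for Cat with Gpx1, 0.977 for Cat with Sod1 and 0.997 for Sod1 with Sod2. Cat and Prdx6 had r = 0.878 and Cat and Prdx1 r = 0.833, while Cat and Gpx3 had r = -0.03. The points share the group difference and the hepatocyte RNA, so these values are a description. In the search for like patterns, genes without a symbol and those with a predicted, Rik or pseudogene-like symbol were left out. Of the remaining tested genes, Hibadh (r = 0.999), Isoc1 (0.998) and Aldh7a1 (0.997) had the pattern most like Cat. Hibadh encodes a mitochondrial enzyme of valine breakdown and Aldh7a1 an aldehyde dehydrogenase of lysine breakdown. The Control mean of Hibadh was 61.4 CPM and its TSDP mean 108 CPM, so its fold change was smaller than that of Cat. For each of the other 9 enzymes the nearest gene reached r of 0.987 or more, over 6 points and from genes with a mean of at least 1 CPM.

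Hepatocyte RNA moved with the 4 genes that DESeq2 called. Within TSDP, Cat, Gpx1, Sod1 and Sod2 each ran in the order of the hepatocyte markers, with TSDP 2 highest and TSDP 5 lowest, and within Control each was highest in Control 4, which held most hepatocyte RNA. Their r with the hepatocyte score, the mean log2 CPM of those markers, was 0.791 for Cat, 0.841 for Gpx1, 0.88 for Sod1 and 0.896 for Sod2 over 6 libraries. The lymphocyte score, built likewise, had a higher r with each of the 4, at 0.89, 0.883, 0.945 and 0.965 in that order of genes. The endothelial score had r of 0.883, 0.87, 0.885 and 0.859, higher than the hepatocyte score for all but Sod2. These scores share the group difference with the genes, and their part in the result was not tested. Control 3, with 125 CPM of hepatocyte markers, had 152 CPM of Cat, and Control 4, with 25068 CPM of those markers, had 211 CPM. The summed hepatocyte markers of TSDP 5 were 0.932 times those of Control 4, and Cat in TSDP 5 was 2.16 times that in Control 4. The likeness of the 2 libraries in hepatocyte RNA held for that sum and not for each marker. Their hepatocyte score was 8.64 in Control 4 and 9.05 in TSDP 5, and single markers differed in either direction. For that pair the ratio was 1.21 for Gpx1, 1.23 for Sod1, 1.21 for Sod2 and 1.29 for Prdx1. It was 1.32 for Prdx5 and 1.24 for Sod3, whose groups overlapped, 1.07 for Prdx6, 1.02 for Prdx2 and 0.415 for Gpx3. For the sums of other markers the ratio was 0.592 for neutrophil, 0.653 for erythroid and 0.783 for fibroblast and smooth muscle markers. It was 0.918 for macrophage, 1.10 for endothelial and 1.13 for lymphocyte markers. These ratios set 1 library against 1 and carry no test.

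When the hepatocyte score entered the edgeR fit as a covariate, the log2 fold change of Cat was 1.56 ± 0.36 (SE), that of Gpx1 0.68 ± 0.26, that of Sod1 0.51 ± 0.22 and that of Sod2 0.37 ± 0.18. The edgeR adjusted p was 0.654 for Cat and 0.886 or more for each of the other 9, and 0 genes of the table passed. At an unadjusted p under 0.05 this fit took 3 of the 10 as higher (Cat, Gpx1 and Prdx1), against 2.43% of all genes, and 8 of 10 were positive against 50.2%. The median log2 fold change of the 10 was 0.35 in this fit, against 0.0017 for all tested genes. Prdx1 stood at 0.50 ± 0.18 and Prdx6 at 0.32 ± 0.20, while Sod3 turned to -0.35 ± 0.43 and Gpx3 stood at -0.97 ± 0.52. This fit leaves 3 residual degrees of freedom and the score itself differs between the groups. The treatment and the hepatocyte RNA therefore cannot be fully told apart.

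**Figure D2:**
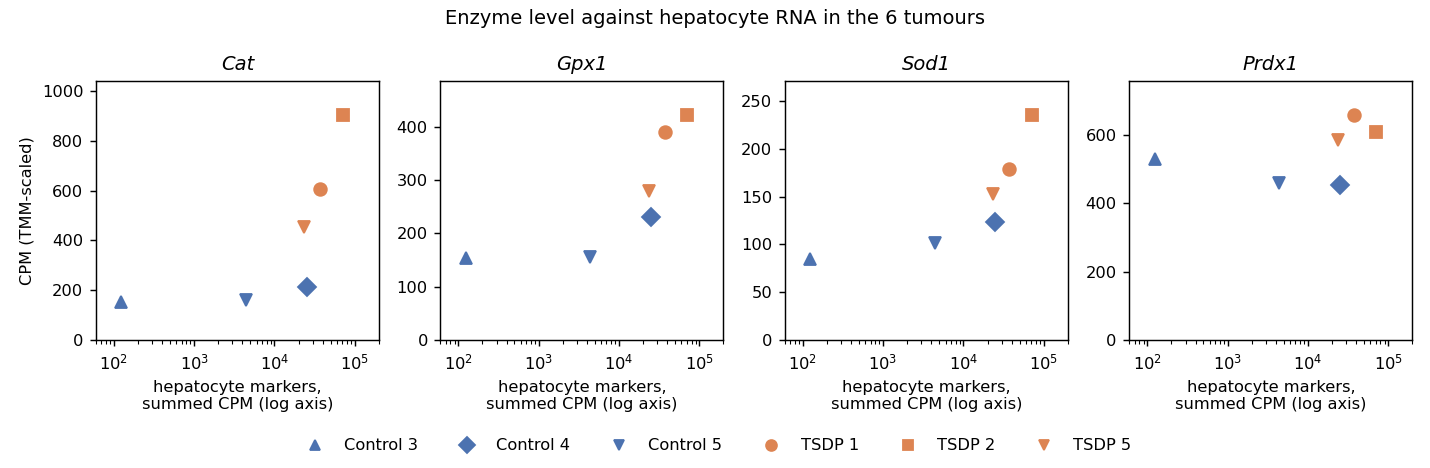
Level of Cat, Gpx1, Sod1 and Prdx1 in CPM (vertical axis, from 0) against the summed CPM of 19 hepatocyte marker genes (horizontal log axis) in the 6 libraries. Control 4 and TSDP 5 lie at 25068 and 23367 on the horizontal axis, and Cat is 211 and 456 CPM there.

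**Figure D3:**
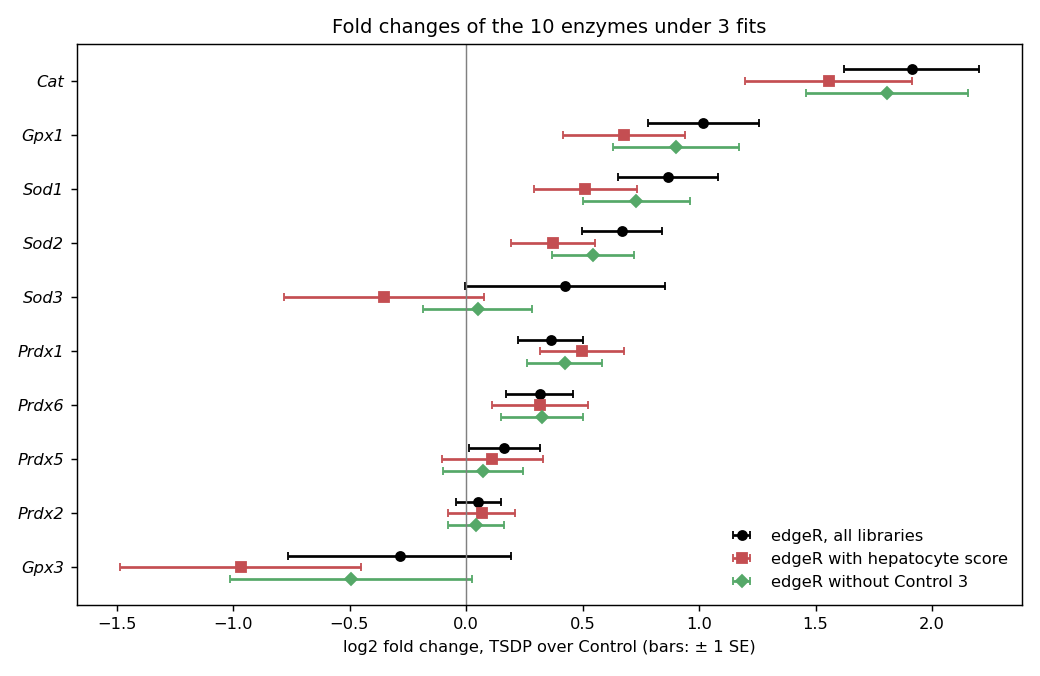
Log2 fold changes (TSDP over Control, bars ± 1 SE) of the 10 genes from edgeR with all 6 libraries, with the hepatocyte score as a covariate and without Control 3. Cat has the highest value of the 10 in each of these fits, at 1.91, 1.56 and 1.81, and Sod3 changes sign with the covariate.

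Marker lists of other cells also differed between the libraries, and edgeR called 0 of their genes (0% of all genes). DESeq2 called 1 endothelial and 1 lymphocyte marker higher (2.98% of all genes). It called 1 neutrophil and 1 erythroid marker lower (0.397%). Over all tested genes 47.3% were positive. Macrophage markers summed to 1634 to 2507 CPM in Control and 2291 to 3038 CPM in TSDP, with 6 of 10 positive. Fibroblast and smooth muscle markers (10 of 10 positive) summed to 3084 to 6293 and 4308 to 8242 CPM, endothelial markers (10 of 10 positive) to 179 to 260.3 and 265 to 424 CPM, and lymphocyte markers (10 of 10 positive) to 63.0 to 84.4 and 89.2 to 107.7 CPM. Of these lists, endothelial and lymphocyte sums did not overlap between the groups. Neutrophil markers were low, at 18.1 to 62.2 CPM in Control and 19.9 to 30.7 CPM in TSDP, with 6 of 8 tested members negative. Of 5 tested erythroid markers 4 were negative, with a median log2 fold change of -3.04, which was that of the haemoglobin gene Hbb-bs. Without Control 3, Hbb-bs stood at -0.15 and Hbb-bt at -0.50, so 1 library carried the erythroid values. Sod3 ran opposite to the erythroid score (r = -0.961). Sod3, which is known from vessel walls, had r = 0.768 with the fibroblast and smooth muscle score and 0.227 with the endothelial score. Its r was higher with the hepatocyte score (0.819) and the lymphocyte score (0.801). Its lowest library, Control 3, was also the lowest in fibroblast and smooth muscle, hepatocyte and lymphocyte markers. The part of these cells in the enzyme levels was not tested.

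Per length of exon, Prdx1, Gpx1 and Cat were the most abundant of the 10 in both groups, and Sod2 the least. Levels were divided by the exon length of each gene in GENCODE M21, which may not be the annotation used for counting. In Control, Prdx1 led with 158 CPM per kb, followed by Gpx1 with 125 and Cat with 66.8, and Sod2 was last with 4.26. The ranges of Prdx1 and Gpx1 overlapped, and those of Gpx1 and Cat did not. In TSDP, Gpx1 stood at 253, Cat at 251 and Prdx1 at 203 CPM per kb, and the ranges of neighbours in this order overlapped. Below them came Prdx5, Prdx6, Sod1, Prdx2, Sod3, Gpx3 and Sod2, of which Prdx6 with Sod1 and Sod3 with Gpx3 overlapped. In Control the order below Cat was Prdx5, Prdx6, Prdx2, Sod1, Gpx3, Sod3 and Sod2, and Cat with Prdx5, Prdx2 with Sod1, Sod1 with Gpx3 and Gpx3 with Sod3 overlapped. With the median length of each gene's coding transcripts in place of the exon length, Prdx1 led in both groups, at 726 and 934 CPM per kb, and Cat moved from place 6 in Control to place 3 in TSDP. With exon lengths, Cat took 11.4%, 13.5% and 11.4% of the summed per-kb level of the 10 enzymes in Control 3, 4 and 5. Its share was 24.3%, 31.2% and 22.3% in TSDP 1, 2 and 5. The share of Sod1 by exon length lay between 4.2% and 5.34% in all 6 libraries. These shares hold for exon lengths only. With the transcript lengths, Sod1 stood above Cat in Control, at 162 against 103 CPM per kb. In TSDP it stood below Cat, at 295 against 387.

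Sod1 and Prdx1 had a match to the core of the antioxidant response element, the site of the stress factor NRF2, written TGACNNNGC and searched on both strands in the 250 bases upstream of the RefSeq start. Promoters of 8 of the 10 enzymes were matched by symbol (not Sod3 and Prdx6). The core was present in 10.2% of 32851 promoters of that length and in Sod1 and Prdx1 of these 8. The FOXO motif GTAAACA (in 3.17% of promoters), the HNF4A motif CAAAGTCCA (0.384%) and the E-box CACGTG of clock factors (6.02%) matched in 0 of the 8. Both promoters with a match are shown, with the matched bases in capitals, for Sod1 at chr16:90220512-90220761 and for Prdx1 at chr4:116685349-116685598 (RefSeq, GRCm38.p6, plus strand). The match starts 56 bases before the start of Sod1 and 133 bases before that of Prdx1. A match is a description and not a bound site.
Sod1: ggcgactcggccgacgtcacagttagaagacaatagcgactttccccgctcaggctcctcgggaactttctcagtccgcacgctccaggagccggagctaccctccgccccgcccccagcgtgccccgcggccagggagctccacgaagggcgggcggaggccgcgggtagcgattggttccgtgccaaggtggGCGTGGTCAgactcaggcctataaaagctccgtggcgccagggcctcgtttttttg
Prdx1: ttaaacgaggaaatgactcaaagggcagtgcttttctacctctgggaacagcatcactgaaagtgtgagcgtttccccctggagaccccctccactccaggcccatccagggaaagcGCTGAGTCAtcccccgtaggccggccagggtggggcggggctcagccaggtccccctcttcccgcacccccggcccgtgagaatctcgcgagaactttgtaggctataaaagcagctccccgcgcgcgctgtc

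Genes that supply the enzymes with glutathione stood higher in part. Of 9 tested genes of glutathione supply 7 were positive (47.3% of all genes), 4 were separate with TSDP above (13% of all genes), 0 were called by edgeR and 3 were higher by DESeq2 (2.98% of all genes), with a median log2 fold change of 0.36. The median of this list was 0.39 with the hepatocyte covariate. Gclc and Gclm encode the subunits of the rate-limiting ligase of glutathione synthesis. Gclc had a Control mean of 80.3 CPM ± 13.04 and a TSDP mean of 208 CPM ± 76.1 (SD, n = 3 each), and Gclm 45.3 CPM ± 8.64 and 120.2 CPM ± 46.2. Gss, glutathione synthetase, averaged 27.4 and 43.7 CPM. Gsr, which returns oxidised glutathione to its reduced form, averaged 106 and 113 CPM with overlapping groups. The NRF2 list shares 6 genes with the glutathione list, and 10 of its 13 tested members were positive with a median of 0.10, or 0.26 with the hepatocyte covariate. Of these members 4 were separate with TSDP above (13% of all genes) and 3 were higher by DESeq2 (2.98%). Osgin1, a target induced by oxidative stress, averaged 32.3 and 75.0 CPM, with a DESeq2 adjusted p of 0.00455 and an edgeR adjusted p of 0.326. The members Txnrd1 and Hmox1, classical NRF2 targets, averaged 182 and 183 CPM and 58.8 and 55.3 CPM. The 3 negative members were Hmox1, Slc7a11 (means of 9.89 and 8.84 CPM) and Fth1 (2982 and 2543 CPM), each with overlapping groups. Among the positive members, Nqo1 averaged 2.48 and 3.78 CPM with overlapping groups, and Me1 53.9 and 75.3 CPM with separate groups.

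The thioredoxin arm, which recharges peroxiredoxins, had 9 of 12 members positive and a median of 0.24, or 0.08 with the hepatocyte covariate. Of its members 3 were separate with TSDP above (13% of all genes). It had 0 calls by edgeR (0% of all genes) and 0 by DESeq2 (2.98% higher and 0.397% lower over all genes). Txn2, the mitochondrial thioredoxin, had a Control mean of 57.6 CPM ± 3.55 and a TSDP mean of 74.4 CPM ± 3.95 (SD, n = 3 each). That gave a log2 difference of 0.37 ± 0.10 (SE) and an edgeR adjusted p of 0.326. Srxn1, the sulfiredoxin that restores overoxidised peroxiredoxins, averaged 43.6 and 54.6 CPM. Of 8 tested peroxidases outside the 10, 7 were positive with a median of 0.18, 2 were separate with TSDP above (13% of all genes) and 1 was higher by DESeq2 (2.98%). That gene was Mgst1, a membrane glutathione transferase with peroxidase activity, at 130.1 CPM ± 78.0 and 569 CPM ± 304. The median of these 8 peroxidases was 0.22 with the hepatocyte covariate. Prdx3, the mitochondrial peroxiredoxin, averaged 49.6 and 64.1 CPM with separate groups.

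Genes that equip the enzymes with selenium or metal were mixed. In selenoprotein synthesis 6 of 8 were positive with a median of 0.53, 4 were separate with TSDP above (13% of all genes) and 1 below (8.76%), 0 were called by edgeR and 2 were higher by DESeq2 (2.98%). The median was 0.31 with the hepatocyte covariate. Sephs2, which makes the selenium donor, had a Control mean of 56.8 CPM ± 19.0 and a TSDP mean of 174 CPM ± 52.7 (SD, n = 3 each), and Eefsec, the elongation factor for selenocysteine, 11.2 and 16.6 CPM. In the list of copper and metal loading 4 of 8 were positive with a median of 0.17, 4 separate with TSDP above (13% of all genes), and 0 called by edgeR or DESeq2. The median was 0.08 with the hepatocyte covariate. Ccs, the copper chaperone of SOD1, averaged 17.7 CPM ± 2.89 and 30.5 CPM ± 7.89, a log2 difference of 0.79 ± 0.22 (SE) (edgeR adjusted p = 0.326). Atox1, a copper chaperone, averaged 16.8 and 22.3 CPM and Slc31a1, the copper importer, 73.0 and 106 CPM. The 2 copper exporters of the list went opposite ways. Atp7b averaged 2.02 and 11.4 CPM with separate groups. Its log2 fold change was 2.50 ± 1.06 (SE), or 0.25 with the hepatocyte covariate. On the lower side, Atp7a averaged 39.5 and 28.6 CPM. The metallothioneins Mt1 and Mt2, which bind metal, averaged 171 and 129 CPM and 7.02 and 5.14 CPM. Atp7a, Mt1 and Mt2 each had overlapping groups.

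Peroxisome genes, whose products build the compartment that holds catalase, leaned one way. All 18 tested genes of the list were positive with a median of 0.33, 11 were separate with TSDP above (13% of all genes) and 0 below (8.76%), 0 were called by edgeR and 2 were higher by DESeq2 (2.98%). Abcd3, a fatty acid transporter of the peroxisome membrane, had a Control mean of 64.6 CPM ± 9.23 and a TSDP mean of 134 CPM ± 41.1 (SD, n = 3 each). That gave a log2 difference of 1.05 ± 0.24 (SE) and an edgeR adjusted p of 0.326. Pxmp4, a peroxisome membrane protein, averaged 15.1 and 44.3 CPM and was the other DESeq2 call. Pex16, which takes part in forming peroxisome membranes, averaged 9.70 and 16.2 CPM. Pex5, the receptor that imports most matrix proteins, averaged 32.7 and 44.0 CPM with separate groups. The list median was 0.19 once the hepatocyte score entered the fit.

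**Figure D4:**
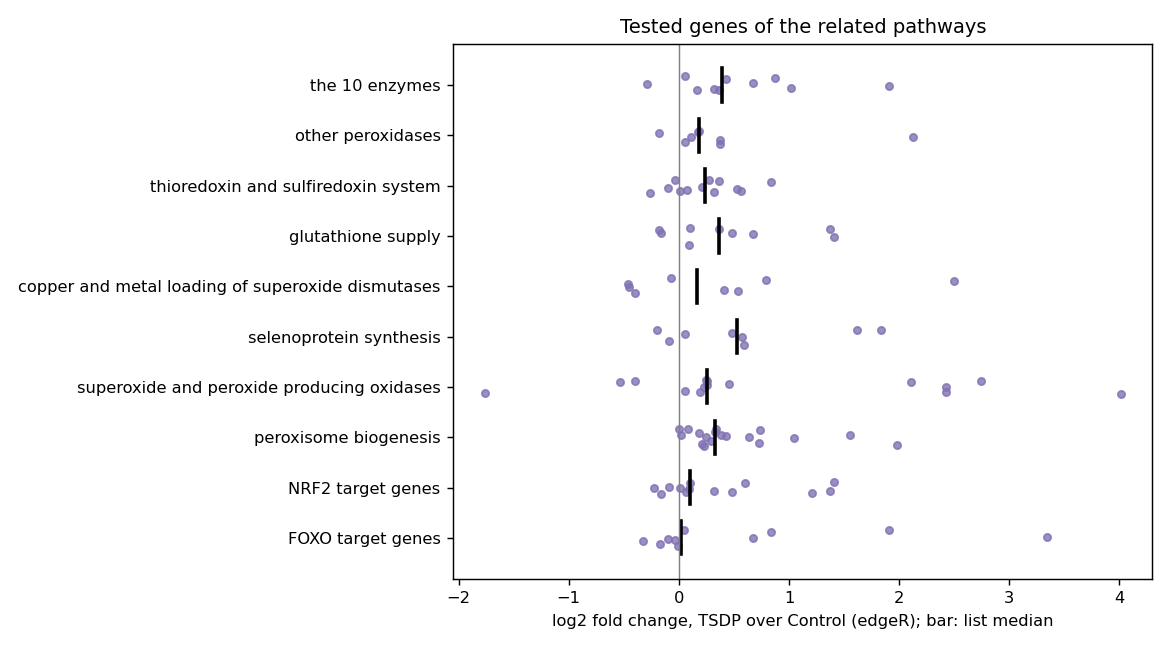
Log2 fold changes (TSDP over Control, edgeR) of the tested genes of each list, 1 dot a gene, with a black bar at the list median and a line at 0. Cat and Sod2 are also in the list of FOXO target genes, and several glutathione genes are in the NRF2 list. The 18 peroxisome genes all lie above 0, and 9 of the 10 enzymes do.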

How the data were processed

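RNA of 6 HCA-1 tumours was sequenced. The aligner HISAT2 2.1.0, the counter featureCounts 2.0.0, the trimmer Trimmomatic 0.38 and CASAVA, FastQC and MultiQC are named per the submitters' processing notes. For the genome build, annotation and strand of counting, these are not given in the sources used. One deposited table holds raw counts per Ensembl gene. The other holds a normalized signal, in which the authors divided each count by 1 constant per library (largest relative departure 5.2e-15), and it supplied the symbols only. All columns belonged to these samples.

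Groups came from sample titles. Counts were tested with edgeR 4.0.16 in R 4.3.3 (TMM, filterByExpr with a minimum count of 10, quasi-likelihood F test, Benjamini-Hochberg adjustment over 17423 genes at 0.05). CPM use TMM-scaled library sizes and log2 CPM a prior count of 2. Standard errors (SE) were taken as the size of the log2 fold change over the square root of F. DESeq2 1.42.0 and limma 3.58.1 (voom), other scaling and filters, a hepatocyte covariate and leaving out each library were alternatives. The steps were tested on simulated counts.

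The members and lists were chosen with earlier results of these data known. Lists are described by counts and medians, with no set test. Named were the 10 members, up to 3 genes of each list with the smallest p and the genes most like each member by Pearson's r. Gsr, Txnrd1, Hmox1, Nqo1, Me1, Pex5, Atp7a, Atp7b, Mt1 and Mt2 were named for their role, after their values were seen. Slc7a11 and Fth1 were named because they stood lower in TSDP. Coding sequences were compared with GENCODE M21 transcripts at 95% identity over 100 bases. The most read copy was Tdpx-ps1, with 3.26% as many reads as Prdx2, and the copies of Prdx1 and Sod1 had 21 and 7 reads in all. Exons of Prdx2 overlap Junb and Rnaseh2a, and those of Prdx5 overlap Trmt112, on the opposite strand, so some of their reads cannot be told apart.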

Additional observations from a re-analysis of the deposited data

How the results depend on the processing

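Over 14 alternatives Cat, Gpx1, Sod1, Sod2, Prdx1, Prdx5 and Prdx6 kept a positive log2 fold change in each. Cat ran from 1.56 to 2.11. Sod3 turned to -0.35 with the hepatocyte covariate, Prdx2 to -0.0101 with library size only and to -0.0148 with upper quartile factors. Gpx3 ran from -0.91 (without TSDP 2) to 0.11 (without Control 4) when 1 library was left out, and was 0.00338 without TSDP 1. With the covariate Cdkn1b turned to 0.048, Hbb-bt to 0.15 and Hbb-bs to 0.49. The cause of these turns was not tested. Over all genes, 620 were called by DESeq2, 1 without the filter on low counts (Etnppl, a liver enzyme, named after its value was seen) and 0 under the others, against 0 in the edgeR fit. Of the 10 enzymes DESeq2 called 4 and each other alternative 0. Without 1 library at a time, the calls ranged from 0 to 0 over all genes and over the 10, and the median log2 fold change of the 10 from 0.35 to 0.49. The lowest edgeR adjusted p of Cat was 0.183, without Control 4. No paired analysis was possible because the groups share a single replicate number. With 3 libraries a group, the edgeR fit called 0 genes, and Cat was not called either. A gene that was not called, such as Prdx2, may therefore still differ between the groups.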

Other observations

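Among oxidases that produce superoxide or hydrogen peroxide, Hao1, Aox3 and Nox4 had separate groups with TSDP above. Of 15 tested genes of that list 12 were positive with a median log2 fold change of 0.26, 6 were separate with TSDP above (13% of all genes) and 1 below (8.76%), and 0 were called by edgeR and 3 were higher by DESeq2 (2.98%). Hao1, the peroxisomal glycolate oxidase of liver, had a Control mean of 14.9 CPM ± 5.70 and a TSDP mean of 64.0 CPM ± 23.3 (SD, n = 3 each). Aox3, an aldehyde oxidase of liver, averaged 9.86 and 159 CPM, and Nox4, a NADPH oxidase that releases hydrogen peroxide, 3.98 CPM ± 2.44 and 21.4 CPM ± 11.3. The list median was 0.11 once the hepatocyte score entered the fit.

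Of 10 FOXO target genes, a list that holds Cat and Sod2 themselves, 5 were positive with a median log2 fold change of 0.02, or 0.04 with the hepatocyte covariate, and 3 were separate with TSDP above (13% of all genes). Klf15, a transcription factor of fasting metabolism, averaged 2.096 CPM ± 2.74 and 21.2 CPM ± 13.8 (SD, n = 3 each), Sesn3 15.8 and 28.2 CPM, and Cdkn1b, a cell cycle inhibitor, 133 and 118 CPM. DESeq2 called 2 of the list higher, Cat and Sod2 (2.98% of all genes), and edgeR 0.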
